A study of Homo sapiens with 27 samples.

Results

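RNA of HuH-7 cells that carried a CRISPR guide against FGFR4 was compared with RNA of HuH-7 cells that carried a non-targeting guide. HuH-7 is a line of human liver cancer cells. The control libraries (sgNTC, labelled WT) and the sgFGFR4 libraries (labelled as FGFR4 knockout) were 3 each, so 6 of the 27 libraries of the series entered the comparison. The labels call the 3 of a group biological replicates without saying whether they were separate cultures, so the p-values measure the spread between these libraries. All 58735 genes of the deposited table were screened, and the 14716 with at least 1 FPKM in at least 3 of the 12 HuH-7 libraries were tested. FPKM counts the fragments of a gene per kilobase of its transcripts and per 1000000 fragments of the library. The other groups used here, also of 3 libraries each, were HuH-7 sgFGFR3/4 (guides against both receptors), HuH-7 sgKLB (co-receptor beta-klotho), and sgNTC and sgFGFR4 of JHH-7, another liver cancer line. All cells grew in medium with serum, and no treatment or time point is given. The labels do not say whether a knockout line is 1 clone or a pool of edited cells.

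FGFR4 is the fibroblast growth factor receptor that predominates in hepatocytes. It binds the gut and tumour hormone FGF19 together with the co-receptor KLB, and the bound receptor signals through the adaptor FRS2, RAS and ERK. In the normal liver this axis restrains bile acid synthesis, and some liver cancers that make FGF19 depend on it for growth.

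FGFR4 RNA fell in HuH-7 sgFGFR4. It stood at 230.3, 232 and 255 FPKM in the 3 sgNTC libraries and at 88.2, 85.2 and 88.7 FPKM in the 3 sgFGFR4 libraries. The groups did not overlap, and the mean in sgFGFR4 was 36.6% of the control mean. On the log2(FPKM + 1) scale, used for every change below and given with its standard error, the change was -1.44 ± 0.071 (limma adjusted p 2.28e-06). FGFR4 passed the threshold of 0.05 under all 16 alternative analyses. Bulk RNA cannot tell apart a lower level in every cell from a lower level in some of the cells, and RNA does not show how much receptor protein was left.

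The partners of FGFR4 did not pass the test. FGFR3, the receptor closest to FGFR4 in level here, read 114, 119 and 119 FPKM in sgNTC and 117, 109 and 111 FPKM in sgFGFR4 (change -0.06 ± 0.057, adjusted p 0.492). KLB, the co-receptor, read 18.6, 17.4 and 15.2 FPKM against 17.9, 18.8 and 19.3 FPKM (change 0.13 ± 0.098, adjusted p 0.422). For both genes the groups overlapped, and for both the sign of the change depended on the scaling between libraries. FGFR1 was low, at 6.15, 4.54 and 6.92 FPKM in sgNTC and 4.65, 5.15 and 5.8 FPKM in sgFGFR4 (change -0.14 ± 0.18, adjusted p 0.666). FGF19, the ligand, was at 8.36, 7.82 and 8.81 FPKM in sgNTC and 8.51, 8.01 and 9.03 FPKM in sgFGFR4 (change 0.03 ± 0.11, adjusted p 0.889), and its sign also turned with the scaling. FGFR2 was below the filter. Of 19 receptor adaptors and proximal signalling genes, 1 passed the test: SOS1, the exchange factor that loads RAS, rose by 0.61 ± 0.13 (adjusted p 0.0411). Its change after the length and GC correction was 0.22 and did not pass (adjusted p 0.25).

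**Figure D1:**
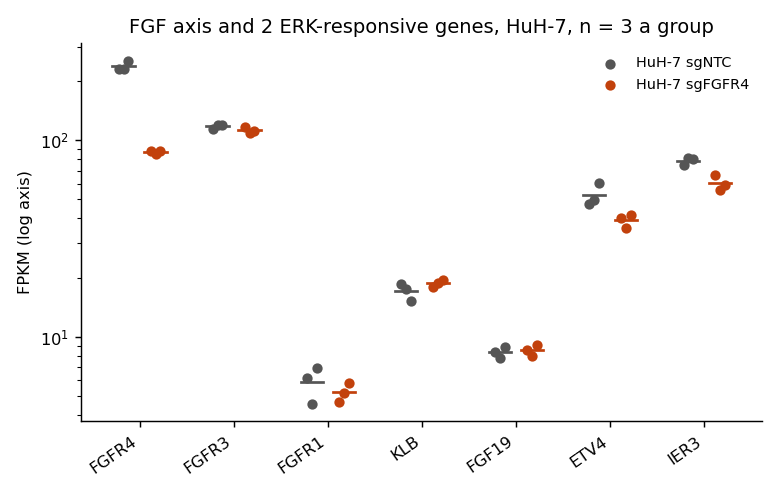
FPKM on a log axis in each of the 3 sgNTC (grey) and 3 sgFGFR4 (orange) libraries of HuH-7 for 4 genes of the FGF axis besides FGFR4, for FGFR4 itself, and for the ERK-responsive genes ETV4 and IER3. Points are libraries and bars are group means. FGFR4, ETV4 and IER3 separate between the groups, while FGFR3, FGFR1, KLB and FGF19 overlap.

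Across all genes, 546 of 14716 passed the threshold (3.71%). Of these, 304 rose (2.07%) and 242 fell (1.64%). All of them except FGFR4 had adjusted p between 0.0287 and 0.0499, close under the threshold. The count changed widely when 1 library was left out: 1207 genes passed without sgNTC replicate 1, and 4, 2, 1, 1 and 3 passed without sgNTC replicates 2 and 3 and sgFGFR4 replicates 1, 2 and 3. A fit of the 6 libraries alone left 1 gene, FGFR4. At an unadjusted p under 0.05 the number was 3976 with all libraries and 2456 to 4297 with 1 library left out. The split also moved with the scaling: 473 rose and 131 fell with libraries rescaled to an equal sum (TPM), 41 and 55 after quantile normalization, and 115 and 374 after a correction for transcript length and GC content. The sum of FPKM was higher in every sgNTC library (782509 to 822978) than in any sgFGFR4 library (739134 to 759358). The median change over all genes was 0.06 as deposited and 0.14 with TPM. The part of this offset in the falls below was not tested. Every "rose" and "fell" below carries these limits, except for FGFR4. The list counts below are to be read beside the shares over all genes, 2.07% rising and 1.64% falling.

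Genes that rose were long and poor in G and C, and genes that fell were short and rich in them. The median transcript was 4181 bases with 41.0% GC among the 304 that rose, 2162 bases with 56.5% GC among the 242 that fell, and 2982 bases with 48.7% GC over all genes tested. Genes that fell also stood at higher levels. The median of their sgNTC means was 115.8 FPKM, against 10.9 FPKM among genes that rose and 10.2 FPKM over all genes tested. The shares over all genes are not matched for level, and the part of level in the list counts below was not tested. With the genes in 5 equal groups by GC content, the median change was 0.33 in the lowest group, where 5.37% of the genes rose. In the highest group the median change was -0.10, and 3.03% fell. This profile differed between libraries. In the lowest group the median deviation from the mean of the 12 HuH-7 libraries was -0.01, -0.11 and -0.37 in sgNTC replicates 1 to 3, and 0.10, 0.24 and 0.17 in sgFGFR4 replicates 1 to 3. The sgNTC replicate 3 library stood lowest, and without it the median change of that group was 0.23. The part of this profile in the genes named below was not tested. For a number of them the change after the length and GC correction is also given.

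**Figure D2:**
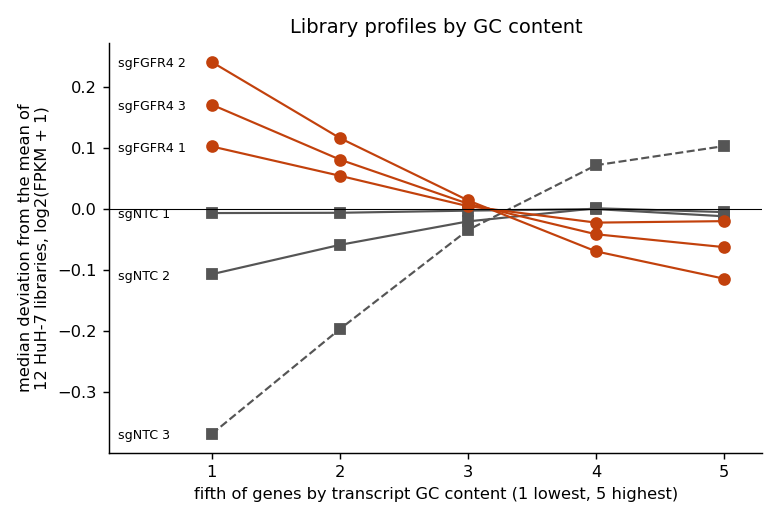
Median deviation of log2(FPKM + 1) from the mean of the 12 HuH-7 libraries, for the genes tested in 5 equal groups by transcript GC content. Each line is 1 library, orange for sgFGFR4 and grey for sgNTC, with sgNTC replicate 3 dashed; it runs from -0.37 in the lowest to 0.10 in the highest group, opposite to the 3 sgFGFR4 libraries.

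Estimated depth was alike in the 6 libraries, at between 18.3 and 19 times 1000000 fragments. The number of genes with at least 1 FPKM was 13353 to 13643 in sgNTC and 13881 to 14108 in sgFGFR4. The labelled cell type fitted its markers: the plasma protein ALB read 2561 to 3419 FPKM and the fetal liver protein AFP 561 to 891 FPKM, while SERPINC1, PLG and FETUB read below 1 FPKM in each library and F9 was listed at 0 throughout. Of 20 stromal, endothelial and immune markers, 8 passed the filter and 0 passed the test. Their summed level was 397 to 433 FPKM in sgNTC and 450 to 480 FPKM in sgFGFR4, most of it LUM and CD14, and NKG7, KDR and MS4A1 were listed at 0. The part of these markers in the results was not tested.

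Genes of a MAPK activity signature, which follow ERK output, were mostly lower, and 1 of them passed the test. Of the 9 measured genes of this signature, 1 fell and 0 rose, with a median change of -0.26 against 0.06 over all genes tested. With the length and GC correction 2 fell and 0 rose (median -0.28). ETV4, an ETS factor induced by FGF and ERK signalling, read 47.2, 49.6 and 60.5 FPKM in sgNTC and 39.96, 35.6 and 41.5 FPKM in sgFGFR4. All 3 control libraries lay above the highest sgFGFR4 library, and the change was -0.41 ± 0.10 (adjusted p 0.0495). The other 8 did not pass the test. The ephrin receptor EPHA2 read 78.4, 84.5 and 88.9 against 71.1, 59.97 and 67.02 FPKM (change -0.34 ± 0.099, adjusted p 0.0664). The feedback inhibitor SPRY4 read 21.8, 22.1 and 20.2 against 18.3, 17.1 and 17.5 FPKM (change -0.26 ± 0.090, adjusted p 0.0995). For these 2 genes the groups did not overlap. The ERK phosphatase DUSP6 overlapped, at 10.2, 10.9 and 7.18 against 6.42, 8.39 and 7.73 FPKM (change -0.28 ± 0.20, adjusted p 0.382). In all, 5 of the 9 had every sgFGFR4 library below every control, and across all genes 12.8% did.

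None of 12 other feedback and ETS genes passed the test. Of these, 4 had positive and 8 negative changes (median -0.05, 0.03 with TPM). Among 16 immediate early genes 1 fell and 1 rose, and 9 had positive and 7 negative changes (median 0.03). IER3, an early response gene that protects cells from apoptosis, fell from 75.2, 81.1 and 80.2 to 66.4, 56.1 and 59.03 FPKM, without overlap (change -0.38 ± 0.072, adjusted p 0.0368). ATF3, a stress-induced transcription factor, rose from 35.95, 26.6 and 31.96 to 43.01, 40.6 and 49.9 FPKM (change 0.49 ± 0.12, adjusted p 0.0485).

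Some genes of DNA synthesis fell. Of 33 replication and nucleotide supply genes, all of them measured, 13 fell and 0 rose, against 1.64% of all genes falling. Below the controls in all 3 libraries lay 20 of them, against 12.8% of all genes. The median change was -0.25, between -0.17 and -0.37 under the scaling alternatives, and -0.29 without sgNTC replicate 3. After the length and GC correction 18 fell and 0 rose, against 2.54% of all genes falling. TK1, the thymidine kinase that salvages thymidine for DNA synthesis, read 84.99, 92.7 and 86.8 FPKM in sgNTC and 52.04, 46.8 and 64.7 FPKM in sgFGFR4. The lowest control exceeded the highest sgFGFR4 library, and the mean fell to 61.8% of control (change -0.70 ± 0.10, adjusted p 0.0301). RRM2, the small subunit of ribonucleotide reductase, which makes deoxynucleotides, fell from 123, 128 and 132 to 90.6, 76.2 and 88.1 FPKM (change -0.59 ± 0.084, adjusted p 0.0301). GINS2, a part of the replicative helicase, fell from 17.9, 18.9 and 21.2 to 14.1, 11.9 and 11.9 FPKM (change -0.58 ± 0.10, adjusted p 0.0359). The helicase subunit MCM7 fell from 242, 251 and 270.3 to 194, 190.4 and 183 FPKM (change -0.42 ± 0.064, adjusted p 0.0301). In each of these 4 genes the groups did not overlap.

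Members of the replication and cholesterol lists fell in HuH-7, and the CCAAT box, a promoter element bound by NF-Y, is a known feature of both classes. The 250 bases before the start site are shown for the 2 falling genes of smallest p in each list with a usable entry among the RefSeq promoters (GRCh38.p14). RRM2 lies at chr2:10122489-10122738 on the plus strand, TK1 at chr17:78187205-78187454 on the minus strand, FDPS at chr1:155308616-155308865 on the plus strand and MVD at chr16:88663092-88663341 on the minus strand. Capitals mark CCAAT or its reverse complement.
RRM2: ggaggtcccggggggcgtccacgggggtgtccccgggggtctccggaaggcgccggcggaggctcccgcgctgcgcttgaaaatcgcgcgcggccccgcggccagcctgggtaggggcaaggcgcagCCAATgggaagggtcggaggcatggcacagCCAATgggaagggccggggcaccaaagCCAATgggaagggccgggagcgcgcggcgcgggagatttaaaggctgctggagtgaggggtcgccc
TK1: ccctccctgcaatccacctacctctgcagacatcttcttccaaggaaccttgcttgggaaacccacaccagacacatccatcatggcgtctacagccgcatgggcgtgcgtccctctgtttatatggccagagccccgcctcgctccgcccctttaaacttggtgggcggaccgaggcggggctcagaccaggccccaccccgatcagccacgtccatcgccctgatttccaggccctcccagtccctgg
FDPS: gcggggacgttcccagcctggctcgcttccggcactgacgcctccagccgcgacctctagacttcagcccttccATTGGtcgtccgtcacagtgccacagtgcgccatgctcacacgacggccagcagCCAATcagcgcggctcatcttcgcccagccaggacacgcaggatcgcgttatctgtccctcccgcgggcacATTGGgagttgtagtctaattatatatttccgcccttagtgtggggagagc
MVD: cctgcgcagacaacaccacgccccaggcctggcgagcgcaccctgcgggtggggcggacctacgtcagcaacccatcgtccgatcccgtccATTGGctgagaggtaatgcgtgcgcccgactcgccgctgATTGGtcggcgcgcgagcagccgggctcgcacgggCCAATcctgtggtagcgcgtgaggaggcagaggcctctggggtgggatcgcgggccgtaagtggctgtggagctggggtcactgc
RRM2, FDPS and MVD hold 3 matches each and TK1 holds 0. A match on either strand was found in 33.0% of all 27305 promoters, in 35.1% of the 10297 matched to tested genes, in 15 of 29 matched replication genes (51.7%) and in 15 of 18 matched cholesterol genes (83.3%). Among genes that fell it was found in 90 of 183 matched promoters (49.2%), and among genes that rose in 71 of 226 (31.4%). The median GC content of these windows was 68.0% for the replication genes and 66.8% for the cholesterol genes, against 64.8% for the tested genes. It was 66.8% for genes that fell and 64.0% for genes that rose. The genes that fell include members of both lists, so their share is not separate from those of the lists. The part of these matches in the falls was not tested. A match does not show that a factor binds.

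Some mitotic genes fell. Of 32 genes 7 fell and 0 rose, but 15 had positive and 17 negative changes, and the median was -0.09 (-0.01 with TPM). PSRC1, a spindle protein, read 16.9, 10.1 and 13.1 FPKM in sgNTC and 7.51, 7.13 and 7.49 FPKM in sgFGFR4 (change -0.75 ± 0.18, adjusted p 0.0455). CDC20, the activator of the anaphase-promoting complex, fell from 194, 202 and 217 to 142, 144 and 143 FPKM (change -0.51 ± 0.086, adjusted p 0.0317). The mitotic kinase PLK1 fell from 90.5, 89.8 and 104 to 76.3, 73.8 and 74.3 FPKM (change -0.33 ± 0.078, adjusted p 0.0455). The 3 sgFGFR4 libraries were close together for all 3 genes and below the controls. PIMREG, a mitotic regulator, fell to 63.6% of its control mean (adjusted p 0.0476). The beta-tubulin TUBB fell from 562, 592 and 648 to 451, 431 and 442 FPKM (change -0.44 ± 0.067, adjusted p 0.0301). Among 20 G1 cyclins and CDK inhibitors, the S-phase factor E2F1 fell by -0.37 ± 0.089 and the CDK4/6 inhibitor CDKN2B rose by 0.44 ± 0.10 (adjusted p 0.048 and 0.0455). Neither passed after the length and GC correction, with changes of -0.29 and 0.30 (adjusted p 0.0538 and 0.13).

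Some genes that make ribosomes fell as well. Of 25 ribosome biogenesis genes 6 fell and 0 rose (median change -0.16). RRP9, a factor of the small-subunit processome, fell from 30.9, 28.7 and 32.8 to 20.6, 19.3 and 21.4 FPKM (change -0.57 ± 0.14, adjusted p 0.0497). FBL, the fibrillarin that methylates ribosomal RNA, fell from 404, 391 and 427 to 335, 326 and 310.2 FPKM (change -0.33 ± 0.058, adjusted p 0.0317). Of 85 cytosolic ribosomal protein genes 13 fell and 0 rose, and 56 lay below the controls in every library. Over all genes 1.64% fell and 12.8% lay below the controls. The median change of the 85 was -0.20 (-0.11 with TPM, -0.04 after quantile normalization). RPLP0, a stalk protein, fell from 1849.7, 1786 and 2038 to 1583, 1426 and 1490.0 FPKM (change -0.33 ± 0.071, adjusted p 0.0396). Ribosomal protein genes have many processed pseudogenes, so their FPKM are uncertain where reads could be shared. Of 78 mitochondrial ribosomal protein genes 2 fell and 0 rose, near the 1.64% of all genes that fell. MRPL17 was among them, and it fell from 124, 92.7 and 81.8 to 62.3, 60.5 and 63.8 FPKM (change -0.65 ± 0.13, adjusted p 0.0376). None of 13 mitochondrially encoded genes passed the test.

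**Figure D3:**
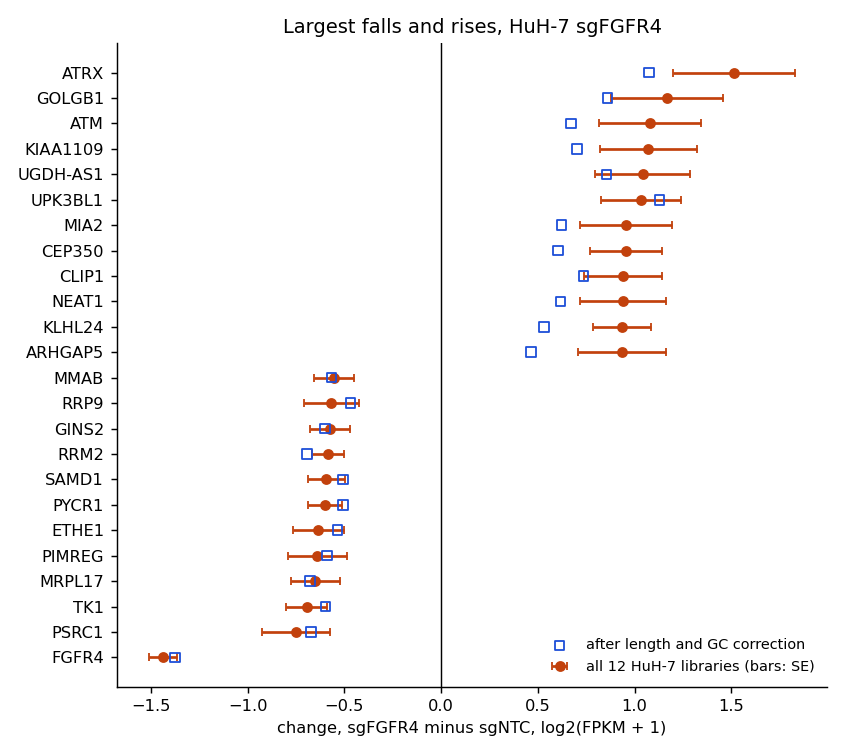
Change in log2(FPKM + 1), sgFGFR4 minus sgNTC, of the 12 largest falls and 12 largest rises that passed the test with a mean log2 level of at least 3 and no overlap. Orange points with SE bars are the changes in the fit of 12 libraries and blue squares those after the length and GC correction. Squares stay near the points for the falls, and lie closer to 0 than the points for 11 of the 12 rises; UPK3BL1 is the exception.

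Cholesterol synthesis genes fell in part. Of 25 synthesis and uptake genes 10 fell and 0 rose, against 1.64% of all genes falling. The median change of the list was -0.27, between -0.19 and -0.26 under the scaling alternatives. After the length and GC correction 14 fell and 0 rose. FDPS, which makes farnesyl diphosphate, read 830.4, 857 and 894 FPKM in sgNTC and 685, 647 and 645 FPKM in sgFGFR4. Its groups were far apart for their spread, and the change was -0.39 ± 0.050 (adjusted p 0.0287). MVD, the mevalonate decarboxylase, fell from 170.2, 178 and 185 to 140.4, 126 and 133 FPKM (change -0.41 ± 0.071, adjusted p 0.0317). DHCR7, the last enzyme of one branch to cholesterol, fell from 248, 254 and 281 to 204, 189.9 and 195 FPKM (change -0.41 ± 0.078, adjusted p 0.0367). MMAB, a cobalamin enzyme that shares a promoter region with the mevalonate kinase gene, fell from 71.05, 77.98 and 80.9 to 50.9, 56.7 and 48.03 FPKM (change -0.56 ± 0.10, adjusted p 0.0367).

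Of 17 fatty acid synthesis and triglyceride genes 3 fell and 0 rose (median change -0.08, 0.01 with TPM). They were FASN, the fatty acid synthase, and the desaturases FADS1 and FADS2. FASN fell from 236, 247 and 263 to 203, 179 and 182 FPKM (change -0.40 ± 0.077, adjusted p 0.0368). FADS2 fell from 478, 506 and 547 to 385, 378 and 347 FPKM (change -0.46 ± 0.082, adjusted p 0.0352). None of 17 fatty acid oxidation and PPARA target genes passed the test, although 7 lay above the controls in every library, where 20.3% of all genes did.

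Some glycolytic genes fell. Of 26 glycolysis and hypoxia genes 8 fell and 0 rose (median change -0.26). SLC16A3, the transporter that exports lactate, fell from 79.98, 81.1 and 80.8 to 63.1, 52.5 and 55.8 FPKM (change -0.49 ± 0.074, adjusted p 0.0301). TPI1, the triosephosphate isomerase, fell from 1184, 1176 and 1338 to 990.5, 898 and 975 FPKM (change -0.37 ± 0.078, adjusted p 0.0393). GAPDH fell from 4319.9, 4501 and 5036 to 3787, 3549 and 3603 FPKM (change -0.34 ± 0.070, adjusted p 0.0393). In all 3 genes every control lay above every sgFGFR4 library, but after quantile normalization the change of GAPDH was 0.00 and that of TPI1 -0.17. PYCR1, which makes proline, was one of 3 falling genes of 22 in the ATF4 and amino acid list (0 rose, median change -0.09). It read 95.2, 105 and 109 FPKM in sgNTC and 67.7, 64.9 and 69.9 FPKM in sgFGFR4 (change -0.60 ± 0.088, adjusted p 0.0301).

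Chaperones of the endoplasmic reticulum fell in part. Of 20 such genes 5 fell and 0 rose (median change -0.07, 0.01 with TPM). HYOU1 fell from 116, 108 and 116 to 89.8, 83.7 and 81.9 FPKM (change -0.41 ± 0.068, adjusted p 0.0317). The disulfide isomerase PDIA4 fell from 132, 139 and 143 to 109, 97.4 and 106 FPKM (change -0.40 ± 0.063, adjusted p 0.0317). Of 20 cytosolic chaperones 4 fell and 0 rose (median change -0.14). HSPA8, the constitutive HSP70, fell from 1161, 1129.7 and 1209 to 1022, 1023 and 976 FPKM (change -0.21 ± 0.050, adjusted p 0.0455). After quantile normalization its change was -0.0046 (adjusted p 0.962) and the median of the list -0.03.

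Some liver function genes rose. Of 10 bile acid synthesis genes 3 rose and 0 fell (median change 0.16), and of 25 plasma protein genes 2 rose and 0 fell (median -0.01, 0.05 with TPM). Over all genes 2.07% rose and 1.64% fell. BAAT, which joins bile acids to taurine or glycine, rose from 7.11, 6.72 and 6.74 to 9.8, 9.68 and 9.13 FPKM (change 0.42 ± 0.092, adjusted p 0.0411). AMACR, a racemase of bile acid side-chain oxidation, rose from 37.5, 35.5 and 37.7 to 45.2, 44.7 and 46.9 FPKM (change 0.30 ± 0.066, adjusted p 0.0419). The lipid carrier SCP2 rose from 148, 134 and 108 to 184, 184 and 182 FPKM (change 0.50 ± 0.11, adjusted p 0.0438). After the length and GC correction none of the 3 passed the threshold, and their changes were 0.17, 0.13 and 0.17. The fibrinogen chain FGG rose from 357, 344 and 290.4 to 425, 445 and 433 FPKM (change 0.40 ± 0.080, adjusted p 0.0382), and the plasmin inhibitor SERPINF2 from 34.5, 33.9 and 39.5 to 47.3, 44.7 and 42.9 FPKM (change 0.32 ± 0.079, adjusted p 0.0497). After the correction these 2 changes were 0.21 and 0.40.

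Leaving aside genes known only by an identifier or clone name, the rises with the smallest p were those of CLTRN, UGT2B4 and CALCOCO1. CLTRN, a partner of amino acid transporters, read 3.48, 3.91 and 2.89 FPKM in sgNTC and 7.14, 7.96 and 6.96 FPKM in sgFGFR4. The mean of the sgFGFR4 libraries was 215% of control, with a wide gap between the groups (change 0.92 ± 0.12, adjusted p 0.0287). UGT2B4, a glucuronosyltransferase that conjugates bile acids, rose from 22.6, 18.3 and 17.7 to 32.1, 34.9 and 32.5 FPKM (change 0.74 ± 0.10, adjusted p 0.0301). Its family holds near-identical copies, so the split of reads among them is uncertain. CALCOCO1, an autophagy receptor, rose from 20.9, 22.8 and 28.1 to 37.4, 39.1 and 38.96 FPKM (change 0.68 ± 0.10, adjusted p 0.0301). The changes of these 3 genes after the length and GC correction were 0.61, 0.49 and 0.64.

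Genes with long transcripts were among the largest rises. ATRX, a chromatin remodeller, read 11.9, 5.82 and 5.2 FPKM in sgNTC and 20.7, 28.3 and 18.97 FPKM in sgFGFR4 (change 1.51 ± 0.32, adjusted p 0.0393). The centrosomal anchor AKAP9 read 4.59, 4.33 and 2.06 against 9.03, 16.9 and 9.59 FPKM (change 1.46 ± 0.30, adjusted p 0.0393). GOLGB1, the golgin giantin, read 8.71, 7.18 and 4.47 against 12.3, 22.5 and 14.8 FPKM (change 1.17 ± 0.29, adjusted p 0.0497). Libraries of 1 group differed widely in these genes, with sgNTC replicate 3 the lowest of all 6, and after the length and GC correction the 3 changes were 1.07, 1.04 and 0.86, the last of which did not pass (adjusted p 0.0579). The DNA damage kinase ATM read 7.5, 6.22 and 3.17 against 9.28, 17.6 and 11.6 FPKM (change 1.08 ± 0.26, adjusted p 0.0491). NEAT1, the long noncoding RNA of paraspeckles, read 22.9, 19.4 and 12.3 against 33.8, 40.1 and 30.97 FPKM (change 0.94 ± 0.22, adjusted p 0.0463). For both, sgNTC replicate 3 was the lowest of the 6 libraries, and without it the changes were 0.77 and 0.70. Corrected for length and GC content they were 0.67 and 0.62, and neither passed (adjusted p 0.0819 and 0.0544). Among genes with a mean log2 level of at least 3, the other 8 of the 12 largest rises were KIAA1109 at 1.07, UPK3BL1 at 1.03, UGDH-AS1 at 1.04, MIA2 at 0.96, CEP350 at 0.95, CLIP1 at 0.94, KLHL24 at 0.94 and ARHGAP5 at 0.93. After the correction these 8 changes were 0.70, 1.13, 0.85, 0.62, 0.60, 0.74, 0.53 and 0.46, and those of MIA2, CEP350 and KLHL24 did not pass. UPK3BL1 has a near-identical copy, and UGDH-AS1 lies antisense to UGDH, so both are uncertain.

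In the lists that hold such genes few members passed, all of them upward. The counts that rose were 3 of 17 golgins (median change 0.33), 3 of 19 centrosome scaffolds (0.52), 1 of 32 large chromatin regulators (0.29), 3 of 23 splicing and decay factors (0.25) and 9 of 414 ZNF genes (0.20), and 0 fell in each. Over all genes 2.07% rose, and the counts of the chromatin and ZNF lists are near that share. After the length and GC correction the counts were 0, 2, 1, 0 and 1, and the medians 0.24, 0.24, 0.09, 0.04 and 0.04. In the splicing list 1 gene fell after that correction. Median transcript lengths of the first 3 lists were 6427, 7660 and 9003 bases, above the 2982 bases of all genes. Of 34 clustered histone genes tested 3 rose and 0 fell (median 0.40). After the correction 3 rose as well (median 0.38), but of the first 3 only HIST1H2AG was among them, with HIST3H2A and HIST1H1C as the others. HIST1H2AC rose from 18.01, 14.5 and 15.7 to 21.9, 21.5 and 23.6 FPKM (change 0.45 ± 0.091, adjusted p 0.0382), and its change after the correction was 0.27 (adjusted p 0.136). Histone genes are similar in sequence, so their FPKM are uncertain.

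In other lists few genes passed. Of 17 oncofetal and progenitor genes 2 fell and 1 rose (median change -0.0030). KRT19, a bile duct and progenitor keratin, fell from 778, 851 and 898 to 713, 644 and 674 FPKM (adjusted p 0.0426). The imprinted oncofetal RNA H19 fell from 30.4, 29.4 and 31.3 to 22.1, 17.8 and 22.2 FPKM (change -0.54 ± 0.11, adjusted p 0.0382). SOX4, a transcription factor of progenitor cells, rose by 0.27 ± 0.064 (adjusted p 0.0453). Of 18 YAP and TEAD targets 1 fell and 1 rose (median 0.06). CTGF, a matrix protein induced by YAP, fell from 366, 379 and 398 to 317, 294 and 295 FPKM (change -0.34 ± 0.059, adjusted p 0.0352), and the stress-response gene GADD45A rose by 0.41 ± 0.085 (adjusted p 0.0393). IFIT3 was the only one of 20 interferon genes that passed, and it rose by 0.61 ± 0.15 (adjusted p 0.0473, and 0.0834 after the length and GC correction). Its level was near the filter, at 0.95, 1.11 and 1.11 FPKM in sgNTC and 2.3, 2.15 and 1.94 FPKM in sgFGFR4. None of 19 hepatocyte transcription factors, 10 bile acid transport and FXR genes, 14 other receptor tyrosine kinases or 37 proteasome subunits passed the test.

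FGFR4 lies near the end of the long arm of chromosome 5. Of the 57 tested genes beyond it towards the telomere, 1 rose and 2 fell, with a median change of -0.05. Within 5 Mb on the other side 0 of 29 rose and 1 fell (median -0.03). On the rest of the chromosome 22 of 601 rose and 4 fell (median 0.18, 0.00 after the length and GC correction). Its nearest neighbour ZNF346 read 15.99, 15.3 and 13.7 FPKM in sgNTC and 15.02, 12.3 and 15.8 FPKM in sgFGFR4, and none of the 6 nearest tested genes passed the test.

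Some genes differed between sgFGFR3/4, with a guide against FGFR3 in addition, and sgFGFR4. The part of FGFR3 loss in these differences was not tested. Between sgFGFR3/4 and sgFGFR4, a comparison that uses no control library, 238 of 14716 genes passed (1.62%), 150 higher (1.02%) and 88 lower (0.598%) in sgFGFR3/4. Leaving out sgFGFR3/4 replicates 1, 2 and 3 gave 117, 133 and 148 genes, and leaving out sgFGFR4 replicates 1, 2 and 3 gave 132, 106 and 100. FGFR3 itself was at 47.4, 46.6 and 46.1 FPKM in sgFGFR3/4 (difference -1.25 ± 0.057, adjusted p 9.18e-07), and FGFR4 at 87.1, 95.4 and 88.3 FPKM (difference 0.05 ± 0.071, adjusted p 0.85). SERPINF2 was at 84.7, 95.95 and 83.01 FPKM in sgFGFR3/4, above sgFGFR4 (difference 0.95 ± 0.079, adjusted p 0.000172). ETV4 was at 27.9, 26.6 and 23.8 FPKM, below sgFGFR4 (difference -0.56 ± 0.10, adjusted p 0.0174). IER3 was lower by -0.44 ± 0.072 (adjusted p 0.00961). For RRM2, TK1, FDPS, MVD, PYCR1 and TUBB the difference did not pass, with adjusted p from 0.303 to 0.987. FBL, LDHA and CTGF, which also fell in sgFGFR4, were lower by -0.26, -0.31 and -0.47 (adjusted p 0.0456, 0.00431 and 0.00226). Of the 33 replication genes 2 were lower and 0 higher in sgFGFR3/4, with a median difference of -0.19.

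Loss of the co-receptor differed more widely from loss of FGFR4. Between sgKLB and sgFGFR4, 2463 genes passed (16.7%), 1044 higher (7.09%) and 1419 lower (9.64%) in sgKLB. After quantile normalization 1384 were higher and 1206 lower. The count was 1403 and 1325 without sgKLB replicates 1 and 3, and 1214 and 1490 without sgFGFR4 replicates 2 and 3. The GC profile also differed between these groups. In the lowest GC group the median deviation was -0.20, -0.06 and -0.16 in sgKLB replicates 1 to 3, against 0.10, 0.24 and 0.17 in sgFGFR4. No length and GC correction was run for this comparison, and the part of the profile in it was not tested. ETV4 was at 17.9, 16.8 and 18.3 FPKM in sgKLB, against 39.96, 35.6 and 41.5 FPKM in sgFGFR4 (difference -1.10 ± 0.10, adjusted p 4.83e-05), and IER3 at 38.9, 39.1 and 37.4 FPKM (difference -0.64 ± 0.072, adjusted p 0.000209). Of the MAPK signature 8 of 9 genes were lower in sgKLB than in sgFGFR4, of the replication list 23 of 33, of the mitosis list 28 of 32, and 0 were higher. Of the 25 plasma protein genes 17 were higher and 0 lower. FDPS, at 643, 643 and 651 FPKM, did not differ beyond the spread (difference -0.03 ± 0.050, adjusted p 0.741). ATRX was at 6.43, 8.17 and 6.48 FPKM, near the controls (difference -1.55 ± 0.32 from sgFGFR4, adjusted p 0.00746). FGF19 was at 20.1, 17.97 and 19.3 FPKM (difference 1.08 ± 0.11, adjusted p 8.59e-05).

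Set against sgNTC, which these knockouts share as their control, the means stood in the order sgFGFR4, sgFGFR3/4, sgKLB for several genes. ETV4 was at 74.5%, 49.8% and 33.7% of the control mean, IER3 at 76.8%, 56% and 48.8%, and SERPINF2 at 125%, 245% and 389%. FDPS stood at 76.5%, 73.9% and 74.99%, with no such order.

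The same guide target in JHH-7 gave an independent set of libraries. FGFR4 read 147, 154 and 144 FPKM in sgNTC and 69.7, 71.6 and 67.8 FPKM in sgFGFR4 of JHH-7 (change -1.08 ± 0.082, adjusted p 3.80e-05). In that line 637 of 14987 genes passed (4.25%), 362 rising (2.42%) and 275 falling (1.83%). The total was 418 and 276 without its sgNTC replicates 1 and 2, and 222 and 264 without its sgFGFR4 replicates 1 and 2. Of 13304 genes tested in both lines, 538 passed in HuH-7 and 580 in JHH-7, and 58 passed in both, which is 10.8% of the HuH-7 genes and 10.0% of the JHH-7 genes. Of the 58, 19 rose in both, 16 fell in both, 22 fell in HuH-7 and rose in JHH-7, and 1 did the reverse. Among all genes tested in both lines 2.46% rose and 1.9% fell in JHH-7.

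Several genes that rose in both lines act in the liver; those named here beyond the lists were chosen after their values were seen. The alcohol dehydrogenase ADH6 read 2.03, 0.95 and 1.49 FPKM in HuH-7 sgNTC and 4.01, 4.07 and 3.77 FPKM in sgFGFR4 (change 1.01 ± 0.19, against 0.68 ± 0.081 in JHH-7). SULT2A1, which sulfates bile acids and steroids, rose from 58.7, 56.4 and 52.2 to 71.8, 69.5 and 64.1 FPKM (change 0.29 ± 0.070, against 1.33 ± 0.14). The chaperone ERP27 rose from 3.82, 4.69 and 4.08 to 7.72, 7.82 and 8.29 FPKM (change 0.79 ± 0.12, against 0.78 ± 0.19). UGT2B4, UGT2B7, UGT2B15, BAAT, AMACR, FGG, SERPINF2 and GC, the vitamin D carrier, were also among the 19. Their changes in JHH-7 were 0.34, 0.60, 0.94, 0.51, 0.53, 0.44, 0.41 and 0.46. Besides FGFR4, the 16 that fell in both included ETV4 (-0.41 in HuH-7 and -0.29 in JHH-7), IER3 (-0.38 and -0.79), PYCR1 (-0.60 and -0.55), HYOU1 (-0.41 and -0.42) and TRIB3 (-0.34 and -0.74).

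Part of the replication genes moved in opposite directions between the lines. In JHH-7, 12 of the 33 rose and 0 fell (median change 0.38), against 2.46% of genes rising there. TK1 read 80.7, 88.1 and 91.3 FPKM in JHH-7 sgNTC and 134, 135 and 115 FPKM in JHH-7 sgFGFR4 (change 0.55 ± 0.094, adjusted p 0.00545), the reverse of its fall in HuH-7. The difference between the lines, tested as an interaction in a fit of all 27 libraries, passed for 689 of 16731 genes (4.12%), 396 higher (2.37%) and 293 lower (1.75%) in JHH-7. This split was 268 and 460 with TPM and 403 and 194 after quantile normalization. The total was 350 and 343 without HuH-7 sgNTC replicate 3 and sgFGFR4 replicate 2, and 401, 246 and 357 without JHH-7 sgNTC replicate 3 and sgFGFR4 replicates 1 and 2. TK1 differed by 1.25 ± 0.14 (adjusted p 9.62e-05), RRM2 by 0.95 ± 0.14 (adjusted p 0.000573) and GINS2 by 1.08 ± 0.14 (adjusted p 0.000291). In the replication list 21 of 33 genes passed with the JHH-7 effect higher and 0 with it lower, in the mitosis list 14 and 0 of 32, in the cholesterol list 8 and 0 of 25, and in the glycolysis list 11 and 2 of 26. In the MAPK signature 0 of 9 passed. The GC profile differed between the lines. In the lowest of the 5 GC groups the median change with sgFGFR4 was 0.33 in HuH-7 and 0.05 in JHH-7. The line difference was not fitted with a length and GC correction, and the part of this profile in it was not tested. CDKN2B rose in HuH-7 and fell in JHH-7, there from 35.5, 31.8 and 30.2 to 11.6, 12.5 and 12.8 FPKM (difference between the lines -1.77 ± 0.18, adjusted p 2.03e-05).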

How the data were processed

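RNA sequencing was done on total RNA of cultured HuH-7 and JHH-7 cells, per the labels' protocols. The authors deposited 1 FPKM value per gene and library, made with RSEM against GRCh38 per the submitters' processing notes; which aligner, annotation release and RSEM version they used is not given in the sources used here. That the unit is FPKM was read from the sums of the columns and from values that are not whole. Columns sum to 782509 to 822978 in the sgNTC libraries and to 739134 to 759358 in the sgFGFR4 libraries of HuH-7. Read counts were not used. Low FPKM values (up to 0.6) rise in steps of 1 fragment, which gave an estimate of depth. Only genes with a single, short annotated transcript were used for it. Depth and fragment length were chosen to bring their values closest to whole fragments. With that choice 89.9% to 92.4% of these values lay within 0.1 of a whole fragment, so this share is no separate check. Depths are estimates, and no counting intervals are given.

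From these values log2(FPKM + 1) was computed. The added 1 understates the changes of low genes. Genes with FPKM of at least 1 in at least 3 HuH-7 libraries were kept. Group means of all 12 HuH-7 libraries were fitted with limma 3.58.1 (trend and robust, statmod 1.5.0, R 4.3.3), so the 4 groups share one estimate of the spread. Contrasts were tested two-sided with Benjamini-Hochberg adjustment over all genes tested. JHH-7 was fitted likewise over 15 libraries, and the line difference as an interaction over all 27. The fit was tested on simulated data. Transcript length and GC content came from the longest basic transcript of each gene in GENCODE 29, and the correction removed a spline over both (4 and 5 degrees of freedom) from each library.

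Genes were named by rule: the FGF axis, the 12 largest rises and falls past the threshold with a mean log2 level of at least 3 and no overlap, the 10 smallest p, up to 4 members of each of 43 lists in each direction by smallest p, and the 3 largest differences in each direction of the other comparisons. Members that illustrate a count without passing the test, genes called in both lines and genes beside FGFR4 were named outside that rule, after their values were seen. A few genes that the rule or the text would name are not reported here. The comparison, the members and the lists were chosen with earlier results of these data known. Alternatives changed the pseudocount (0.1, 0.5), the filter, the scaling, the model and the libraries included.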

Additional observations from a re-analysis of the deposited data

Results flagged for a closer look

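For 48 of the 116 genes named by rule the effect of sgFGFR4 differed between JHH-7 and HuH-7. The test was limma's interaction test in a fit of all 27 libraries (adjusted p under 0.05), which 4.12% of all genes tested passed. Many of the 116 were chosen by their change in HuH-7 sgFGFR4, and some by this line difference. Their number and directions here are therefore not independent of that choice. The values below are the JHH-7 effect minus the HuH-7 effect on the log2 scale, so a positive value means a higher change in JHH-7.

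Replication and mitosis genes on this list all differed in the positive direction. The replication genes TK1, GINS2, MCM5, RRM2 and MCM7 differed by 1.25, 1.08, 0.96, 0.95 and 0.72. The mitotic genes CDC20, PIMREG, CCNB1, KIF22 and PLK1 differed by 0.97, 0.96, 0.53, 0.52 and 0.49. The tubulin gene TUBB differed by 0.86 and E2F1 by 0.70.

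Metabolic and other genes also gave positive values. The desaturases FADS2 and FADS1 differed by 0.92 and 0.45, and the cholesterol enzymes FDPS, DHCR7 and MVD by 0.71, 0.55 and 0.49. The glycolytic genes TPI1, LDHA and GAPDH differed by 0.72, 0.68 and 0.38. The chaperones HSPA8, CALR, SDF2L1, PDIA4, STIP1 and DNAJB1 differed by 0.87, 0.71, 0.66, 0.58, 0.47 and 0.40. The natriuretic peptide gene NPPB differed by 1.77. It was low in JHH-7, at 0.31, 0.65 and 0.6 FPKM in sgNTC and 3.23, 3.31 and 1.65 FPKM in sgFGFR4. The scavenger receptor gene SCARA3 differed by 1.17, HABP2 by 0.53, SAMD1 by 0.70, MPP1 by 0.57 and the nucleolar gene NOP56 by 0.47.

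Negative values were found mainly for genes that were higher in HuH-7 sgFGFR4. In the lowest of the 5 GC groups the median change was 0.33 in HuH-7 and 0.05 in JHH-7. The part of this profile in the line differences was not tested. ADIRF, below the filter in JHH-7, differed by -2.68, the CDK inhibitor gene CDKN2B by -1.77, ATRX by -1.57, CCPG1 by -1.49, COG5 by -1.26 and MIA2 by -1.21. CLIP1 differed by -0.99, ZNF480 by -0.97, HIST1H2AG by -0.95, CALCOCO1 by -0.93, TP53INP1 by -0.84, KLHL24 by -0.78, GOLGA5 by -0.52 and GADD45A by -0.43. FGF19 differed by -0.69, with changes of -0.66 in JHH-7 and 0.03 in HuH-7. IER3 differed by -0.41, since it fell further in JHH-7.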

How the results depend on the processing

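Of the HuH-7 sgFGFR4 results only the fall of FGFR4 passed under all 16 alternatives. The 546 genes became 1 without a filter on low values (29433 genes tested), 942 with FPKM of at least 5, 96 after quantile normalization, 1 in a fit of both groups alone, 2 with neither trend nor robust options, and 1 to 1207 with 1 library left out. Pseudocounts of 0.1 and 0.5 gave 590 and 554. Of 101 named genes past the threshold, 101 kept their call with either pseudocount, 82 with TPM, 72 after the length and GC correction, 27 after quantile normalization, and 1 to 89 with 1 library left out; none of the 101 changed sign in these alternatives. Replicate numbers did not pair the samples (correlations of same-numbered deviations -0.058, 0.043 and 0.014), and a fit with a replicate block left 1 gene.

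Without a filter the other comparisons gave 134 (sgFGFR3/4 against sgFGFR4), 1592 (sgKLB against sgFGFR4), 337 (JHH-7) and 346 (line difference) genes. With 1 library left out they gave 100 to 148, 1214 to 1868, 222 to 842 and 246 to 970. The block gave 119 genes for sgFGFR3/4 against sgFGFR4. The fit without a filter tested more genes, and the fits with 1 library left out held fewer samples. What made the counts differ between settings was not tested.

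Signs turned for genes that did not pass: FGFR3 with TPM (0.020), KLB after the length and GC correction (-0.050), and FGF19 after quantile normalization (-0.12) and with 1 library left out (-0.011 to 0.067, below 0 without sgNTC replicate 2 or sgFGFR4 replicate 3). The deposited values are FPKM, so the depth behind a single gene is known only by estimate.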
